A study of Cicer arietinum with 11 samples.

Results

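The transcripts described here stood at least 10 times higher in germinating chickpea seedlings than in any other tissue sampled. They were chosen from their RPKM values, in which reads are scaled to transcript length in kilobases and to the mapped reads of the library. A transcript was taken where the germinating seedling had at least 5 RPKM and at least 10 times the highest of the 10 other libraries. The rule found 216 of 34760 transcripts, or 0.621%. Of the 17879 transcripts at 5 RPKM or more in the seedling, the other 17663 did not meet the fold. The seedling level and its ratio to the other libraries chose these transcripts, so both are given as description, without a test.

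The study covers 11 mRNA libraries of chickpea (Cicer arietinum) genotype ICC4958, a desi-type line, with 1 library for each tissue or stage. The germinating seedling (n = 1) stands against 4 flower stages, 4 flower bud stages and 2 other vegetative tissues. These are young leaves of mature plants and the shoot apical meristem of plants 20 days old, called the meristem below. Flowers and buds also came from mature plants. Per the labels' protocols, mature plants stood in the field and seedlings in a culture room, and site and age cannot be told apart from tissue. Where the plants that gave the meristem grew is not stated. No library is a repeat of another. Spread and p-values below therefore measure differences between stages or tissues, and the seedling itself has no replicate check. Libraries were of whole tissue, where fewer cells of a type and less RNA per cell cannot be told apart.

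Germination is the passage from a dry, resting seed to a growing plant. The embryo resumes metabolism, the radicle breaks the seed coat to become the primary root, and stored protein, starch and oil are broken down to feed growth until the leaves photosynthesize. Chickpea keeps its cotyledons below ground, and they serve as a food store. The labels do not say which parts of the seedling were collected, and no root, cotyledon or seed library is among the 11.

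The files give transcript IDs alone, and 0 of the 216 IDs occur in a reference table of 29938 chickpea genes. What the transcripts encode is not stated here, no marker genes could be used to check the tissue labels, and no sequences are shown. The transcripts are ordered by where else they were found.

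Depth was recovered from the RPKM values, since each is a whole number of reads before scaling. Totals ran from 14536530 reads in flower bud 2 to 35643139 in flower bud 3, with 23927246 in the germinating seedling. At the median length of 736 bases, 1 read was worth between 0.0381 and 0.0935 RPKM. The library most like the germinating seedling over all transcripts was the meristem, with a Spearman correlation of 0.79 across transcripts. Each flower or bud library had a closest relative at 0.92 or above. A rule asking for 10 times every other library therefore sets a flower or bud stage against close relatives. That rule gave 4 transcripts for flower 3, none for the other flowers, 74 for flower bud 1, none for later buds, 37 for the meristem and 15 for young leaves.

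Most of the 216 transcripts were of moderate level in the germinating seedling, and a few were among the abundant ones. The median was 28.6 RPKM, the middle of the set ran from 13.1 (25th percentile) to 88.3 RPKM (75th percentile), and the extremes were 5.12 and 1909.6 RPKM. The seedling held 42 of them below 10 RPKM, 101 from 10 to under 50, 24 from 50 to under 100, 34 from 100 to under 500 and 15 at 500 or more. Their summed level was 24928.6 RPKM, 3.11% of the seedling's total, of which the 20 highest transcripts made up 61.2%. In reads, the set took 3.03% of the seedling library. The lowest read count behind a seedling value was 18 and the median was 328.5, so every seedling value rests on counted reads well above 3.

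The distance to the other tissues varied over more than 3 orders of magnitude. Among the 209 transcripts with any read outside the seedling, the seedling level was a median of 20.8 times the highest other value (25th percentile 14.0, 75th percentile 42.9). The ratio lay between 10 and 20 for 99 of them, between 20 and 100 for 77, between 100 and 1000 for 25, and at 1000 or more for 8. The remaining 7 had no read elsewhere. Few transcripts were therefore restricted to the seedling in the sense of being undetected elsewhere: 59 of 216 (27.3%) had reads in all 10 other libraries, 108 in 4 to 9 of them and 42 in 1 to 3. The levels behind those reads were low, since 120 transcripts (55.6%) stayed below 1 RPKM in every other library. Another 80 reached 1 RPKM in 1 to 9 other libraries and 16 did so in all 10.

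**Figure D1:**
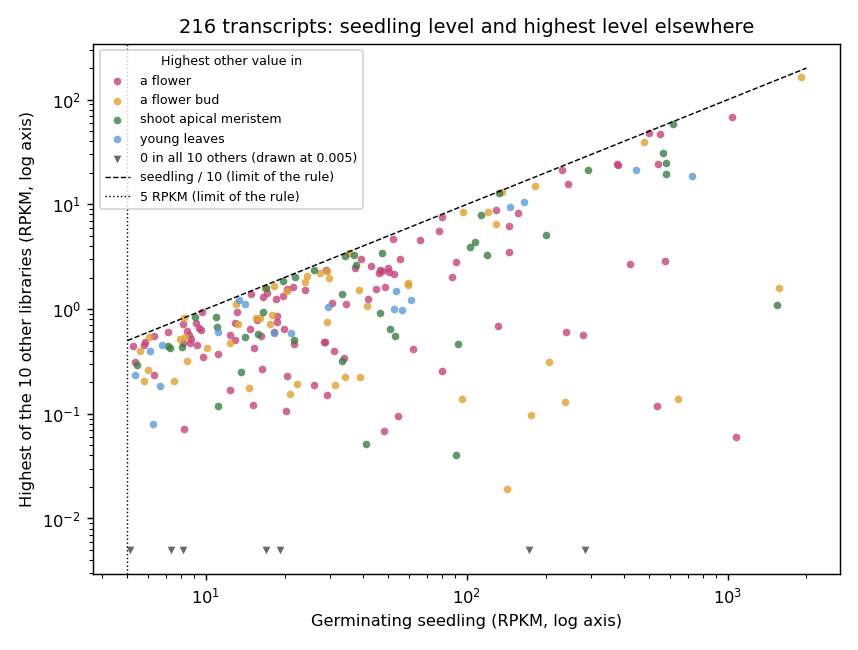
Level of each of the 216 transcripts in the germinating seedling (horizontal, RPKM) against its highest level in the 10 other libraries (vertical, RPKM), both on log axes and coloured by the tissue with that highest value. The dashed and dotted lines are the limits that chose the set; the points spread down from 163.8 RPKM elsewhere to the 7 transcripts at 0, drawn at 0.005.

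The limits of the rule cut through a continuous range. Ca_TC11442, nearest inside the fold limit, had 8.26 RPKM in the germinating seedling against 0.816 in flower bud 2, a ratio of 10.13. Ca_TC05507, nearest outside, had 10.4 RPKM in the germinating seedling against 1.04 in flower 4, a ratio of 9.959. With a seedling level of at least 5 RPKM, 33 transcripts had ratios from 10 to under 12 and 50 had ratios from 8 to under 10. At the level limit, Ca_TC26895 had 5.12 RPKM in the germinating seedling and Ca_TC27839, just outside, had 4.96, and both had 0 reads in all other libraries.

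The 4 most abundant transcripts show how unlike the members are outside the seedling. Ca_TC01708, the highest, had 1909.6 RPKM in the germinating seedling. It had 63.8, 81.1, 77.2 and 107.1 RPKM in flowers 1 to 4, 78.2, 162.2, 163.8 and 98.2 in buds 1 to 4, 103.6 in the meristem and 128.7 in young leaves. This transcript was common everywhere, and only its still higher seedling level, 11.66 times flower bud 3, placed it in the set. It alone supplied the highest single value of the set in all libraries except flower 1, where Ca_TC33764 led with 65.9 RPKM.

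Ca_TC23842 had 1565.6 RPKM in the germinating seedling. It had 0.234, 0.0661, 0.284 and 0.0774 RPKM in flowers 1 to 4, 0.513, 1.59, 0.488 and 1.43 in buds 1 to 4, 1.41 in the meristem and 0.0711 in young leaves. Every other library was below 1.6 RPKM, a gap of at least 982.4 times. All 4 flowers, at 1 to 3 reads each, lay below all 4 buds, at 9 to 22 reads each. The difference between flowers and buds was not called in the limma fit described below (log2 difference -1.11 ± 0.44 SE, adjusted p = 0.138).

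Ca_TC12032 had 1547.8 RPKM in the germinating seedling, and its residual levels lay in the same range. It had 0.267, 0.0992, 0.0609 and 0.0332 RPKM in flowers 1 to 4, 0.147, 0.541, 0.662 and 0.752 in buds 1 to 4, 1.09 in the meristem and 0.0305 in young leaves. The meristem was highest outside the seedling, and flower 1 lay above flower bud 1, so flowers and buds overlapped.

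Ca_TC06623 had 1076.2 RPKM in the germinating seedling, from 29614 reads. Elsewhere it had 2 reads in flower 2 (0.0595 RPKM), 1 read in young leaves (0.0320 RPKM) and 0 reads in the 8 remaining libraries. Pooled over the 10 other libraries its level was 0.00960 RPKM, with an exact Poisson 95% interval from 0.00198 to 0.0281 RPKM that covers counting error only. Its ratio of 18074.7 to the highest other library was the highest of all transcripts with any read elsewhere, and that highest value is 2 reads.

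Among the 15 transcripts at 500 RPKM or more in the seedling, 9 reached 10 RPKM in another library, 3 peaked between 1 and 10 RPKM and 3 stayed below 1 RPKM in all of them. Over the 216 transcripts the seedling level and the highest other value had a Spearman correlation of 0.53, a description across transcripts that share libraries, with an upper limit on the second value set by the rule.

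The 7 transcripts with 0 reads in all 10 other libraries were mostly of low seedling level. Ca_TC23621 was the highest, at 284.1 RPKM in the germinating seedling, from 1346 reads. With a floor of 3 reads in the other libraries pooled (271719321 reads), its seedling level was at least 5095-fold higher than elsewhere. Ca_TC29262 had 173.2 RPKM in the germinating seedling, from 659 reads, at least 2494-fold above its floor. Ca_TC32997 had 19.1 RPKM in the germinating seedling, Ca_TC30880 16.9, Ca_TC25473 8.15, Ca_TC33014 7.36 and Ca_TC26895 5.12. These 5 transcripts rest on 87, 45, 47, 25 and 18 seedling reads, and their seedling levels were at least 329-, 170-, 177-, 94- and 68-fold above the floor. Transcripts with reads in 1 library have the least certain recovered length and read count, which are the lowest possible ones; a longer length would raise these bounds.

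Residual expression was spread over all tissues, and no library was free of it. The number of the 216 transcripts with at least 1 read was 147, 155, 152 and 163 in flowers 1 to 4, 138, 121, 126 and 137 in buds 1 to 4, 161 in the meristem and 118 in young leaves. Scaled to the depth of the shallowest library, the expected numbers were 128.2, 134.2, 142.5 and 144.0 in flowers, 115.3, 121.0, 110.0 and 114.6 in buds, 141.6 in the meristem and 102.8 in young leaves. By either count each flower lay above each bud, and young leaves lay lowest. The other transcripts at 5 RPKM or more in the seedling had this order too, in the share at 1 RPKM or more. That share was 97.0% to 97.8% in flowers, 96.3% to 96.7% in buds and 94.3% in young leaves. At 1 RPKM the set itself did not keep this order, as given below. Shares with at least 1 read were not compared, so whether the order is a trait of the set was not tested.

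At 1 RPKM or more, far fewer transcripts were counted. Flowers 1 to 4 held 37, 35, 53 and 48 of the 216 at that level, buds 1 to 4 held 38, 32, 36 and 39, the meristem held 55 and young leaves 39. At this level flowers and buds overlapped, and the meristem, flower 3 and flower 4 stood above the rest. As a share, this is between 14.8% and 25.5% of the set, against 94.3% to 97.9% of the other transcripts at 5 RPKM or more in the seedling.

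The median transcript of the set had 0.147, 0.175, 0.254 and 0.234 RPKM in flowers 1 to 4, 0.119, 0.0788, 0.0943 and 0.118 in buds 1 to 4, 0.293 in the meristem and 0.0432 in young leaves, against 28.6 in the germinating seedling. Summed levels were 24928.6 RPKM in the germinating seedling. They were 349.8, 390.3, 495.5 and 455.2 RPKM in flowers, 310.2, 361.9, 370.8 and 306.0 in buds, 592.1 in the meristem and 305.6 in young leaves. Without Ca_TC01708 the sums were 286.0, 309.2, 418.3 and 348.2 RPKM in flowers, 232.0, 199.7, 207.0 and 207.8 in buds, 488.6 in the meristem and 176.9 in young leaves. Bud and leaf sums drew more on that single transcript than flower and meristem sums did, and the meristem, flower 3 and flower 4 were the 3 highest with and without it.

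**Figure D2:**
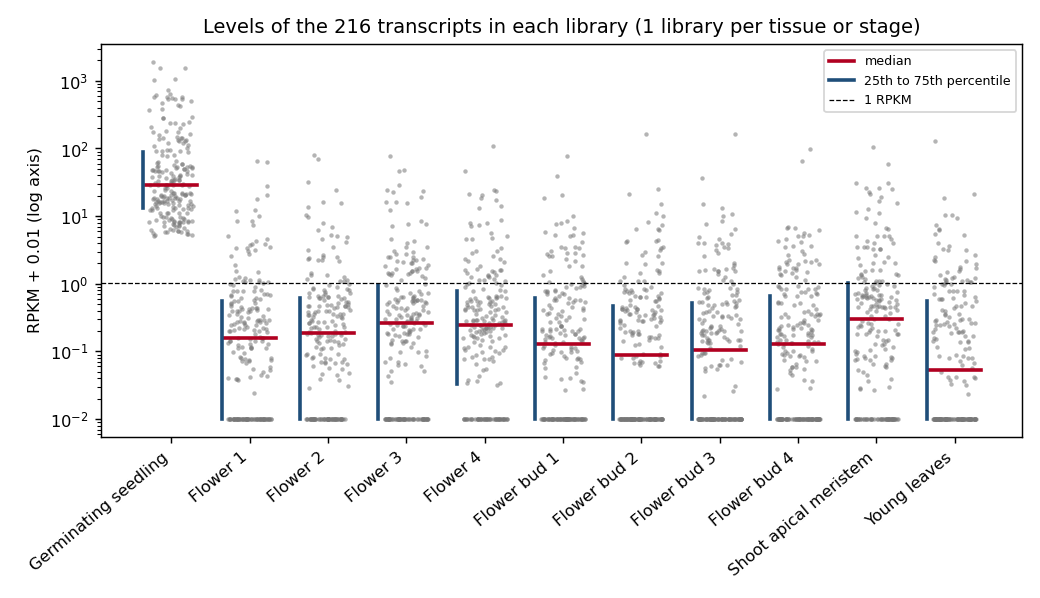
RPKM plus 0.01 (log axis) of each of the 216 transcripts in each of the 11 libraries, 1 point per transcript, with the median as a red bar and the 25th to 75th percentile as a blue line. The medians of the 10 other libraries lie between 0.0432 RPKM in young leaves and 0.293 in the meristem, and values at 0 form the bottom row.

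The highest value outside the seedling lay in a flower for 98 transcripts, in a flower bud for 51, in the meristem for 41 and in young leaves for 19. Flower 3 alone held it for 48 transcripts (22.2% of the set), while it was the highest of the 10 libraries for 11.4% of the other transcripts at 5 RPKM or more in the seedling. The meristem held it for 19% of the set and 25.1% of those other transcripts, and flower bud 1 for 7.9% and 14.3%. These shares are descriptions across transcripts that share libraries.

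Of those peaking elsewhere in a flower, Ca_TC33764 and Ca_TC06371 had the highest residual levels. Ca_TC33764 had 1032.2 RPKM in the germinating seedling. It had 65.9, 68.8, 28.5 and 13.3 RPKM in flowers 1 to 4, 10.1, 21.4, 36.6 and 65.2 in buds 1 to 4, 31.1 in the meristem and 3.12 in young leaves. In the order of the stage numbers its level increased through the buds, was highest in flowers 1 and 2 and was lower again in flowers 3 and 4. Its flower and bud levels therefore overlapped, at 44.1 ± 27.6 RPKM in flowers and 33.3 ± 23.8 in buds (SD, n = 4 each).

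Of those peaking elsewhere in a bud, Ca_TC01708 is described above and Ca_TC07055 followed. Ca_TC07055 had 475.6 RPKM in the germinating seedling. It had 8.54, 7.98, 23.0 and 17.4 RPKM in flowers 1 to 4, 39.7, 25.2, 10.8 and 6.66 in buds 1 to 4, 26.1 in the meristem and 1.92 in young leaves. Its bud levels became lower with each stage, in the reverse order of Ca_TC33764, and the flowers lay within the bud range.

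Of those peaking elsewhere in the meristem, Ca_TC10286 and Ca_TC22887 had the highest residual levels. Ca_TC10286 had 618.5 RPKM in the germinating seedling. It had 17.9, 16.0, 19.3 and 46.7 RPKM in flowers 1 to 4, 2.66, 2.04, 2.55 and 3.63 in buds 1 to 4, 58.0 in the meristem and 0.146 in young leaves. All flowers lay above all buds for this transcript, and young leaves had 4 reads. The difference between flowers and buds was not called in the limma fit described below (log2 difference 2.86 ± 1.04 SE, adjusted p = 0.112).

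Of those peaking elsewhere in young leaves, Ca_TC02051 and Ca_TC00345 had the highest residual levels. Ca_TC02051 had 443.7 RPKM in the germinating seedling. It had 8.42, 9.84, 7.15 and 8.01 RPKM in flowers 1 to 4, 18.5, 10.2, 10.1 and 5.29 in buds 1 to 4, 16.8 in the meristem and 21.3 in young leaves. Flowers were even, at 8.36 ± 1.12 RPKM, and buds less so, at 11.01 ± 5.49 (SD, n = 4 each).

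A different kind of member was expressed at a lower level in every other tissue with no library standing far above the rest. Among the 16 transcripts at 1 RPKM or more in all 10 other libraries, Ca_TC04375 and Ca_TC18546 had the lowest ratios of highest to median value, at 1.275 and 1.35, a measure that takes no account of low values. Ca_TC04375 had 156.9 RPKM in the germinating seedling, 6.88 ± 1.40 in flowers, 5.82 ± 1.86 in buds (SD, n = 4 each), 6.39 in the meristem and 2.69 in young leaves. Ca_TC18546 had 129.0 RPKM in the germinating seedling, 3.63 ± 0.788 in flowers, 6.01 ± 0.518 in buds (SD, n = 4 each), 5.02 in the meristem and 3.21 in young leaves. For this transcript all buds lay above all flowers, but the difference was not called (log2 difference -0.67 ± 0.26 SE; limma, adjusted p = 0.133).

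Differences among the other tissues were tested without the seedling. The rule also capped the tested values, at the seedling level divided by 10, so the tests are not fully independent of how the transcripts were chosen. A limma fit covered the 10 other libraries as 3 groups on log2(RPKM + 0.5). It tested 32512 transcripts with a mean of at least 0.5 RPKM over those libraries, and adjusted p-values over all of them by Benjamini-Hochberg. A transcript was called at an adjusted p under 0.05 and a log2 difference of at least 1 in size. Log2 differences on this scale understate changes of low transcripts. Of the 216 transcripts 75 passed the filter and 141 were too low to be tested. A transcript high in 1 group can pass through that group, so the counts describe the 75 and do not speak for the set.

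In flowers against flower buds, 8 of the 75 transcripts were called higher and 4 lower. Over all transcripts tested, 3.2% were called higher and 4.05% lower. The median log2 difference was 0.25 for the 75 and -0.17 for all tested; after median-of-ratios scaling the medians were 0.35 and -0.01, with 9 called higher and 4 lower. That scaling also turned the balance over all tested, to 1499 called higher and 1016 lower, against 1041 and 1316 in the deposited scaling. The counts moved with single libraries, as did those over all transcripts. Leaving out flower bud 2, flower bud 3 or flower 3 left 4 called higher, with 1.35%, 1.41% and 1.75% called higher over all tested. Leaving out flower 1, 2 or 4 left 5, with 3.18%, 1.9% and 1.87% over all tested. Leaving out flower bud 2 or 3 left 2 called lower, with 1.69% and 1.87% over all tested.

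The 4 transcripts called lower in flowers had reads in every bud and in the meristem, and 3 of them stayed below 1 RPKM in every flower. Ca_TC33422 had 136.6 RPKM in the germinating seedling. It had 0, 0, 0 and 0.255 RPKM in flowers 1 to 4, against 7.53, 10.9, 13.1 and 5.15 in buds 1 to 4, with 4.04 in the meristem and 0 in young leaves. The flower value is 1 read in flower 4, and flowers and buds did not overlap. In log2 units flowers differed from buds by -4.05 in the fit with no filter (SE 0.592, limma adjusted p = 0.00405).

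Ca_TC03858 had 120.0 RPKM in the germinating seedling. It had 0, 0.0675, 0 and 0.0263 RPKM in flowers 1 to 4, against 6.77, 8.09, 8.44 and 2.79 in buds 1 to 4, with 3.54 in the meristem and 0.314 in young leaves. Flowers held 4 reads in all against 126 or more in each bud. The flower minus bud difference was -3.65 in log2 units in the fit with no filter (SE 0.494, limma adjusted p = 0.00287). Without any bud reads, the means of Ca_TC33422 and Ca_TC03858 over the 10 libraries would have fallen below the filter. Fits with no filter are therefore given for them. Both transcripts kept their call in all 20 alternative settings.

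Ca_TC26917 and Ca_TC29312 completed this group of 4. Ca_TC26917 averaged 0.404 ± 0.338 RPKM in flowers and 9.33 ± 6.70 in buds (SD, n = 4 each), a difference of -3.17 on the log2 scale (SE 0.70; adjusted p = 0.0216, limma). Its call was lost without flower bud 2, flower bud 3 or flower 3, at differences of -3.16 to -2.84 and limma adjusted p of 0.0589 to 0.0745, and with voom on recovered reads (limma adjusted p = 0.0619). Ca_TC29312 averaged 1.34 ± 1.11 RPKM in flowers and 7.62 ± 0.666 in buds (SD, n = 4 each), a difference of -2.42 on the log2 scale (SE 0.56; adjusted p = 0.0253, limma). Its call was lost without flower bud 1, 2 or 3 or flower 2 or 4, at differences of -2.51 to -2.37 and limma adjusted p of 0.0517 to 0.0718, and with 0.1 RPKM added (limma adjusted p = 0.0699). The meristem held 9.28 RPKM of Ca_TC26917 and 1.58 RPKM of Ca_TC29312.

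Of the 8 transcripts called higher in flowers, Ca_TC06371 and Ca_TC22821 had the largest differences with 0.5 RPKM added, and neither call was stable. With 0.1 RPKM added, Ca_TC18703 led at 3.86, and Ca_TC06371 stood at 2.35. Ca_TC06371 had 499.8 RPKM in the germinating seedling. It had 28, 32.3, 47.7 and 20.8 RPKM in flowers 1 to 4, against 20.9, 2.55, 5.42 and 4.27 in buds 1 to 4, with 26.4 in the meristem and 5.35 in young leaves. Flower bud 1 reached the level of flower 4, so the groups overlapped. Set against buds, flowers differed by 2.26 in log2 units (SE 0.61; adjusted p = 0.0468, limma). The call was lost without flower bud 2, 3 or 4 or any 1 flower, at differences of 1.89 to 2.44 and limma adjusted p of 0.0743 to 0.134. It was also lost with 0.1 RPKM added, with no filter and with voom on recovered reads (limma adjusted p of 0.0501, 0.0511 and 0.0517).

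Ca_TC22821 had 144.8 RPKM in the germinating seedling. It had 3.72, 6.15, 2.11 and 0.369 RPKM in flowers 1 to 4, against 0.136, 0.0528, 0.194 and 0.129 in buds 1 to 4, with 0.0974 in the meristem and 0.254 in young leaves. Every flower lay above every bud, and flower 4 was much the lowest flower. On the log2 scale the difference between flowers and buds was 2.17. Ca_TC22821 passed the filter through its flower values, so the fit with no filter is given (SE 0.517, limma adjusted p = 0.0314). The call was lost without any 1 bud or without flower 1, 2 or 3, at differences of 1.76 to 2.22 and limma adjusted p of 0.0573 to 0.0966. With the stage number as a replicate block it was lost as well, as given with the processing alternatives.

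Another 4 transcripts were called higher in flowers in every alternative in which they were tested, and are named here after their values were seen. Ca_TC06372 averaged 19.9 ± 3.45 RPKM in flowers and 4.49 ± 1.57 in buds (SD, n = 4 each), a difference of 2.07 on the log2 scale (SE 0.30; adjusted p = 0.00342, limma). Ca_TC18490 averaged 18.8 ± 5.57 RPKM in flowers and 3.95 ± 0.661 in buds (SD, n = 4 each), a difference of 2.08 on the log2 scale (SE 0.31; adjusted p = 0.00407, limma). These transcripts had 375.5 and 380.4 RPKM in the germinating seedling and about the same flower and bud levels as each other.

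Ca_TC01015 averaged 15.3 ± 4.66 RPKM in flowers and 3.97 ± 0.536 in buds (SD, n = 4 each), a difference of 1.78 on the log2 scale (SE 0.30; adjusted p = 0.00683, limma). Ca_TC18703 had 421.8 RPKM in the germinating seedling, 1.97 ± 0.722 in flowers and 0.0612 ± 0.122 in buds (SD, n = 4 each), where 6 reads of flower bud 3 were its only bud reads. In log2 units flowers differed from buds by 2.11. Ca_TC18703 passed the filter through its flower values, so the fit with no filter is given (SE 0.275, limma adjusted p = 0.00238). The other 2 called higher, Ca_TC33562 and Ca_TC16616, had log2 differences of 1.78 and 1.37. Ca_TC33562 also passed the filter through its flower values, so the fit with no filter is given (SE 0.373, limma adjusted p = 0.0186). For Ca_TC16616 the SE was 0.36 (limma adjusted p = 0.0442). Leaving out a single flower or bud library lost the call of Ca_TC33562 for flower buds 2 and 3 and flowers 3 and 4 (1.57 to 1.77, limma adjusted p of 0.0652 to 0.0826). It lost that of Ca_TC16616 for flower buds 1 to 3 and each flower (1.25 to 1.5, limma adjusted p of 0.0692 to 0.118).

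Ca_TC06371 and Ca_TC06372 carry consecutive IDs, 1 of 3 such pairs in the set. Their levels over the 10 other libraries had a Spearman correlation of 0.73. The treatment of reads that similar transcripts share is not given in the sources used here, and their values are uncertain if their sequences are alike.

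**Figure D3:**
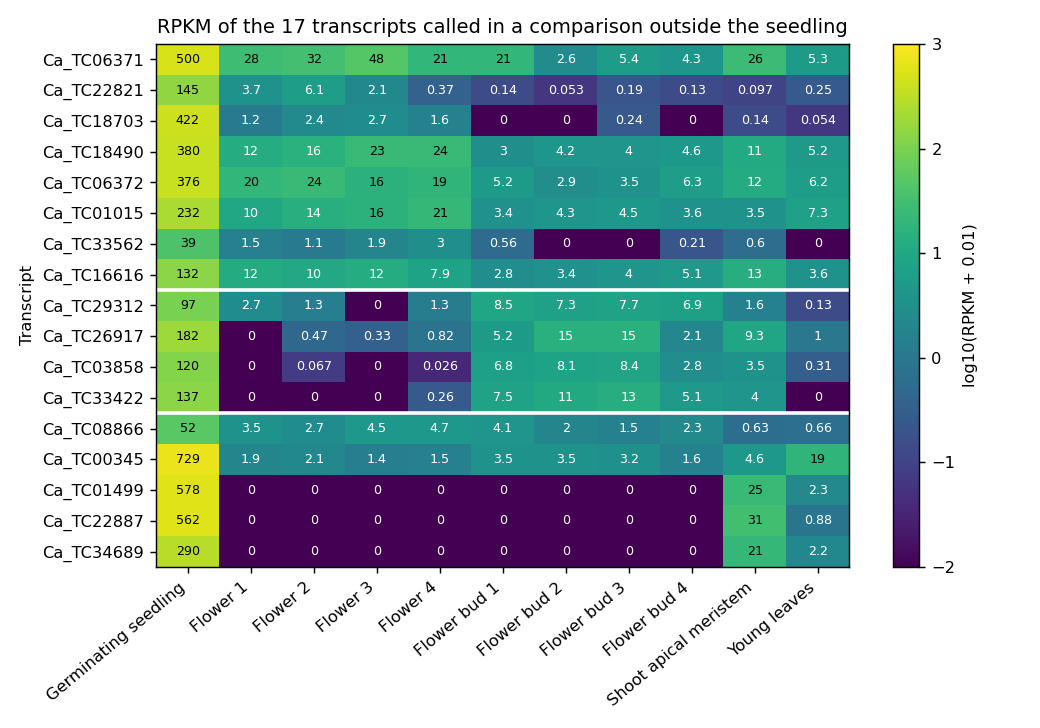
RPKM of the 17 transcripts called in either comparison outside the seedling, with libraries in columns and transcripts in rows, and the colour as log10(RPKM + 0.01). The upper 8 rows were called higher in flowers than in buds and the next 4 lower, while the last 5 were called between reproductive and other vegetative libraries; the bottom 3 rows are at 0 in all 8 flowers and buds.

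The other comparison set the 8 reproductive libraries against the meristem and young leaves. Of the same 75 transcripts 1 was called higher and 4 were called lower in reproductive libraries. Over all transcripts tested, 7.07% were called higher and 3.28% lower. The median log2 difference was -0.11 for the 75 and 0.06 for all tested; after quantile normalization the medians were -0.15 and -0.07, with again 1 called higher and 4 lower. Over all tested, quantile normalization gave 2020 higher and 1714 lower, against 2300 and 1066 in the deposited scaling. Leaving out one or the other vegetative tissue moved the medians of the set and of all tested in opposite directions. Without young leaves the median was -0.46 for 74 transcripts of the set and -0.20 for all tested. Without the meristem it was 0.56 for 69 transcripts of the set and 0.41 for all tested. Without flower 3, 2 of 70 were called higher, against 6.63% over all tested. Leaving out a vegetative tissue leaves that group with 1 library, whose spread is then assumed to be like that of the other groups. Calls of those fits are therefore not counted here.

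A small group had high seedling levels, a lower level in the meristem, a still lower one in young leaves and no read in any flower or bud. Ca_TC01499 had 578.2 RPKM in the germinating seedling and 0 reads in all 8 reproductive libraries, against 24.8 RPKM in the meristem and 2.26 in young leaves. Ca_TC22887 had 561.7 RPKM in the germinating seedling and 0 reads in all 8, against 31.0 RPKM in the meristem and 0.884 in young leaves. Ca_TC34689 had 290.5 RPKM in the germinating seedling and 0 reads in all 8, against 21.1 RPKM in the meristem and 2.19 in young leaves. The meristem thus held 4.28%, 5.51% and 7.25% of their seedling levels and young leaves 0.39%, 0.157% and 0.753%.

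All 3 were among the 4 called lower, but they passed the filter on mean level through the vegetative values alone, so their p-values are not given. Without the meristem they were too low to be tested. Their fitted differences also depend on the added 0.5 RPKM, so bounds are given in their place. With a floor of 3 reads in the 8 libraries pooled (213049960 reads), the reproductive level was at least 297-fold lower for Ca_TC01499, at least 141-fold lower for Ca_TC22887 and at least 83-fold lower for Ca_TC34689 than the mean of the 2 vegetative tissues. Young leaves alone give at least 49-, 7- and 15-fold. Their recovered lengths were 310, 125 and 101 bases, and the young leaf values rest on 19, 3 and 6 reads. Another 5 transcripts had reads in an other vegetative tissue and none in flowers or buds, with 1 to 7 vegetative reads each.

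Ca_TC00345, the fourth called lower, had 729.4 RPKM in the germinating seedling. It had 1.89, 2.15, 1.37 and 1.53 RPKM in flowers 1 to 4 and 3.48, 3.50, 3.19 and 1.55 in buds 1 to 4, against 4.57 in the meristem and 18.8 in young leaves. Young leaves were highest by far, and both vegetative tissues lay above all reproductive libraries. The difference between the classes was -1.87 in log2 units (SE 0.47; adjusted p = 0.0301, limma). The call was lost without young leaves (-0.90, limma adjusted p = 0.202) and without flower bud 3 (-1.89, limma adjusted p = 0.0518).

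Ca_TC08866 was the single transcript called higher in reproductive libraries, and had 51.9 RPKM in the germinating seedling. It had 3.48, 2.69, 4.53 and 4.70 RPKM in flowers 1 to 4 and 4.12, 1.97, 1.54 and 2.26 in buds 1 to 4, against 0.635 in the meristem and 0.664 in young leaves. All 8 reproductive libraries lay above both vegetative tissues. Reproductive minus vegetative, this came to 1.60 in log2 units. Ca_TC08866 passed the filter through its reproductive values, so the fit with no filter is given (SE 0.375, limma adjusted p = 0.0242). The call was lost without young leaves, at a difference of 1.62.

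**Figure D4:**
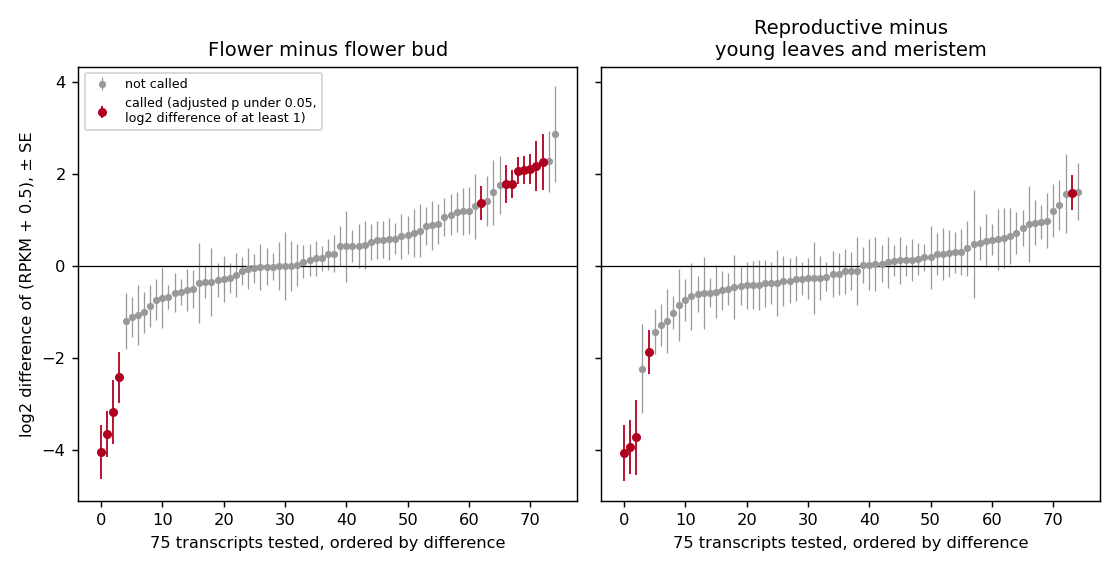
Log2 difference on the RPKM + 0.5 scale, with its SE, of the 75 transcripts tested, each panel ordered from lowest to highest. In flowers against buds (left) 8 were called higher and 4 lower; in reproductive libraries against young leaves and meristem (right) 1 was called higher and 4 lower (red points).

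The set differed from other transcripts of the seedling in recovered length. Among the 196 transcripts with reads in at least 3 of the 11 libraries, where lengths are better determined, the median length was 530.5 bases, against 1255 bases for other transcripts at 5 RPKM or more in the seedling. For those with reads in all 11 libraries the medians were 841 and 1276 bases, over 59 and 17298 transcripts. A shorter transcript gives fewer reads at the same RPKM, so its residual expression is counted less precisely.

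The residual levels were ranked less alike between libraries than those of other transcripts. Over the 216 transcripts the mean Spearman correlation was 0.681 between flowers (6 pairs), 0.68 between buds (6 pairs), 0.555 between a flower and a bud (16 pairs) and 0.561 between the 2 other vegetative tissues. Over the other 17663 transcripts at 5 RPKM or more in the seedling the values were 0.901, 0.923, 0.816 and 0.715. These are descriptions across transcripts; low counts lower such correlations, and their part was not tested.

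Sets chosen by the same rule in other libraries were smaller and held fewer transcripts that were low everywhere else. Of the 216 seedling transcripts 55.6% stayed below 1 RPKM in all other libraries, against 32.4% of the 74 of flower bud 1, 8.1% of the 37 of the meristem and 20% of the 15 of young leaves. The median highest value elsewhere was 0.821 RPKM for the seedling set, 2.24 for flower bud 1, 3.60 for the meristem and 3.00 for young leaves. The seedling set was also lowest in its median own level, at 28.6 RPKM for the seedling set, 42.2 for flower bud 1, 55.6 for the meristem and 38.2 for young leaves. These shares describe sets that the rule chose and carry no test.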

How the data were processed

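The authors deposited RPKM values for 34760 transcripts in each of 11 libraries; per the series' text, reads were filtered with NGS QC Toolkit and mapped to these transcripts. Which aligner was used, and how it treated shared reads, is not given in the sources used here. RPKM divides by library total, so abundant transcripts lower all others. The 128 blank rows of each file were left out.

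Library totals, transcript lengths and whole reads were recovered from the RPKM values: the reads of all 34703 transcripts with a nonzero value came out whole, with a tolerance of 4e-09 of the value and 3e-06 reads, at lengths of at least 100 bases, summing to 99.9518% to 99.9982% of the totals. On simulated data of 12000 transcripts, 11 totals and 99.97% of values came back exactly. Floors (3 reads) and 95% intervals cover counting error only.

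The fits of the other tissues used limma 3.58.1 (R 4.3.3) with an intensity trend and the seedling left out. The limma step was tested on simulated data. Stage numbers are not replicate numbers. Other work used Python 3.11.15. The transcripts and settings were chosen with earlier results of these data known.

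Transcripts were named by rule: the 4 highest in the seedling, the 2 highest at 0 elsewhere, the 2 highest residual levels per tissue class, the 2 with the lowest highest-to-median ratio elsewhere, up to 2 called per direction, and those nearest each limit. Alternatives covered the rule's limits, pseudocount, filter, scaling, voom on recovered reads, single libraries and a stage block; the expected detection at equal depth was added after seeing the data.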

Additional observations from a re-analysis of the deposited data

Results flagged for a closer look

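In groups of 4 libraries, 7 of 55 sets of values had 1 library far from the other 3; chance flags about 1 in 20 such sets. For 4 of the 7 the other 3 libraries are at 0, where any single read is enough to be flagged and that rate does not hold. In flowers, Ca_TC10286 had 46.7 RPKM in flower 4, against 16.0 to 19.3 in the other flowers. Ca_TC06623 had 0.0595 RPKM in flower 2 and 0 in the other flowers. Ca_TC33422 had 0.255 RPKM in flower 4 and 0 in the other flowers. In flower buds, Ca_TC06371 had 20.9 RPKM in flower bud 1, against 2.55 to 5.42 in the others. Ca_TC00345 had 1.55 RPKM in flower bud 4, against 3.19 to 3.50 in the others. Ca_TC11442 had 0.816 RPKM in flower bud 2 and 0 in the other buds. Ca_TC18703 had 0.245 RPKM in flower bud 3 and 0 in the other buds. The 4 values set against 0 rest on 1 to 6 reads.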

How the results depend on the processing

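The number of transcripts that met the rule was 395 at 5 times and 117 at 20 times the highest other library, and 127 with 1 RPKM added to both sides of the ratio. It was 262 and 174 with seedling minimums of 2 and 10 RPKM. It was 238 with median-of-ratios scaling and 238 with quantile normalization, of which 210 and 208 were among the 216. Leaving out 1 other library gave 219 to 304, the last without the shoot apical meristem. In flowers against buds, leaving out 1 library gave 4 to 10 called higher and 2 to 5 lower. In reproductive against other vegetative libraries it gave 0 to 6 higher and 2 to 6 lower. The median log2 difference of the last comparison turned positive without the filter on low values (0.032), at a mean of at least 0.2 RPKM (0.023) and without the shoot apical meristem (0.558), and leaving out 1 library gave -0.458 to 0.558; the cause was not tested. No called transcript changed direction under the alternatives run, and 9 of 17 kept their call in all those where they were tested. Of these 9, Ca_TC01499, Ca_TC22887 and Ca_TC34689 were too low to be tested without the shoot apical meristem, and Ca_TC18703 at a mean of at least 1 RPKM. These transcripts, and also Ca_TC33422 and Ca_TC03858, passed the filter on mean level through the group in which they were high. The count of 9 is therefore not independent of the filter. With stage number as a replicate block on the 8 flower and bud libraries, 8 were called higher and 4 lower (3.65% and 4.09% over all tested). Ca_TC22821 lost its call there. Without the block these libraries gave 10 and 5 (5.29% and 6.26% over all tested). Same-numbered flowers and buds did not deviate together (correlations of -0.167 to -0.07), so the numbers do not pair the libraries. Depth limits values near 1 read, worth 0.0381 to 0.0935 RPKM at the median length.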
